A study of Mus musculus with 4 samples.

Results

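The genes described here are 7 integrin subunits of cultured mouse mammary fibroblasts: the alpha subunits Itga4, Itga5, Itga6 and Itgav and the beta subunits Itgb1, Itgb3 and Itgb5. They were chosen as genes, and their probe sets are those whose platform annotation gives exactly 1 gene symbol, equal to one of the 7. A probe set is the group of short array probes that reports on 1 transcript. This gave 21 probe sets for 7 of the 12394 genes on the array, from 1 for Itgb3 to 6 for Itgb1. Fibroblasts were isolated from mammary glands of FVB/N mice aged 9 weeks, from 4 genotypes with 1 Affymetrix array each. PyMT Ets2-null cells came from PyMT;Fsp-cre;Ets2db/loxP mice and PyMT Ets2-present cells from PyMT;Ets2db/loxP mice. Normal Ets2-null cells came from Fsp-cre;Ets2db/loxP mice and normal Ets2-present cells from Ets2db/loxP mice. Every group, the Ets2-present ones included, thus carried the conventional knockout allele Ets2db beside the conditional loxP allele. Per the methods, Fsp-cre is driven by the promoter of Fibroblast Specific Protein 1, the PyMT oncogene is expressed in the mammary epithelium, the mice were female and the cells were used at the second passage. Cre was present in both Ets2-null groups and in neither Ets2-present group, so carrying Cre and lacking Ets2 cannot be told apart here. How many mice gave each culture is not given in the sources used here.

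Integrins are receptors that span the cell membrane as pairs of 1 alpha and 1 beta subunit. Outside the cell they bind matrix proteins such as fibronectin, laminins and vitronectin, and inside they recruit talin, kindlin and kinases that tie the matrix to the actin cytoskeleton. Itgb1 is the common partner of Itga4, Itga5 and Itga6, while Itgav pairs with Itgb1, Itgb3 or Itgb5. Fibroblasts use these receptors to assemble, pull on and migrate through the matrix.

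Levels are log2 values made by RMA, so a difference of 1 is 2-fold, and with 1 array per group no difference has a replicate error or a p-value. A probe set or gene was kept if its highest level over the 4 arrays reached 4.63, the 40th percentile of all values. Of the members, 6 of 7 genes and 18 of 21 probe sets were kept, against 8687 of 12394 genes and 14031 of 20393 single-gene probe sets overall. As a yardstick for noise, 3378 genes with at least 2 kept probe sets were used, and each array difference was set beside itself in the 2 probe sets of highest mean. The gap between both readings had an SD, called the disagreement SD here, of 0.68 for the Ets2 difference in PyMT and 0.48 in normal fibroblasts, and 0.70 and 0.51 for the PyMT difference without and with Ets2. It covers disagreement between probes, not between mice. Arrays correlated at 0.959 to 0.985 over the probe sets, and the 3 correlations of the PyMT Ets2-null array, 0.959 to 0.969, were the lowest. All 12 fibroblast markers, among them Col1a1, Vim and Pdgfra, reached the filter level on all 4 arrays, but several differed widely between them. The matrix proteoglycans Lum and Dcn and the surface protein Thy1 had PyMT minus normal differences of -5.80, -2.41 and -1.90 without Ets2, where Pdgfrb had 1.01. In that difference 6 of the 12 were above 0 and 6 below it (median -0.02). For the Ets2 difference in PyMT fibroblasts, the protease Fap had -2.37 and Pdgfra 1.41. There 8 of the 12 were above 0 and 4 below it (median 0.25). The Ets2 probe set itself read 11.22, 11.21, 11.89 and 11.86 in PyMT Ets2-null, PyMT Ets2-present, normal Ets2-null and normal Ets2-present cells, and its place relative to the deleted part is not known, so it does not check the deletion. For PyMT fibroblasts, the paper reports by Western blot that the protein was lost, and by staining that its phosphorylated form was lost.

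Upstream sequence is shown for Itga4, Itga5 and Itgb5, the 3 members whose probe set of highest mean ranged most over the 4 arrays, since the deleted gene encodes a DNA-binding factor. ETS proteins bind DNA around the core GGAA, and each run below holds the 250 bases before a RefSeq start site in mouse build GRCm38.p6, 5′ to 3′ on the gene's strand, with GGAA and its reverse complement TTCC in capitals. Both strands were searched, and the 2 forms cannot overlap each other. The windows are chr2:79255176-79255425 on the plus strand for Itga4, chr15:103366792-103367041 on the minus strand for Itga5 and chr16:33829415-33829664 on the plus strand for Itgb5.
Itga4: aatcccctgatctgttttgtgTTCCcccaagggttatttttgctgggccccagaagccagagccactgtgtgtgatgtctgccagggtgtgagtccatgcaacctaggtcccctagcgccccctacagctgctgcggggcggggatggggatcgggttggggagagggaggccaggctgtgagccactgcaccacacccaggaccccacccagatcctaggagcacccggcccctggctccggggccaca
Itga5: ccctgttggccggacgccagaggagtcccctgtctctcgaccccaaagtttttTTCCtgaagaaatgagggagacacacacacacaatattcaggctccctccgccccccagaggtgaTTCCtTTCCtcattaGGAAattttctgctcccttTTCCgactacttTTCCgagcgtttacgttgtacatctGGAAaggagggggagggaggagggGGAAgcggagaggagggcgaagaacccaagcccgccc
Itgb5: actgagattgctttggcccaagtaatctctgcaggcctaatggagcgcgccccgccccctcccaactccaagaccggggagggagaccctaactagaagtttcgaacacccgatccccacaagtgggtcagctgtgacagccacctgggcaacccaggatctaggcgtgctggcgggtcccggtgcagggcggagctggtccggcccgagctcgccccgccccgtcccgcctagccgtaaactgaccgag
The Itga5 window held 8 cores, 3 as GGAA and 5 as TTCC, the Itga4 window 1 and the Itgb5 window 0, and those of Itgav and Itgb1 held 4 each. Over the 32851 windows of the same length in the table, the median was 3, 93.4% held at least 1 and 1.45% held 8 or more. RefSeq windows matched 5 of the 7 members, not Itga6 and Itgb3. A match of 4 letters is a description of sequence and not a binding site.

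**Figure D1:**
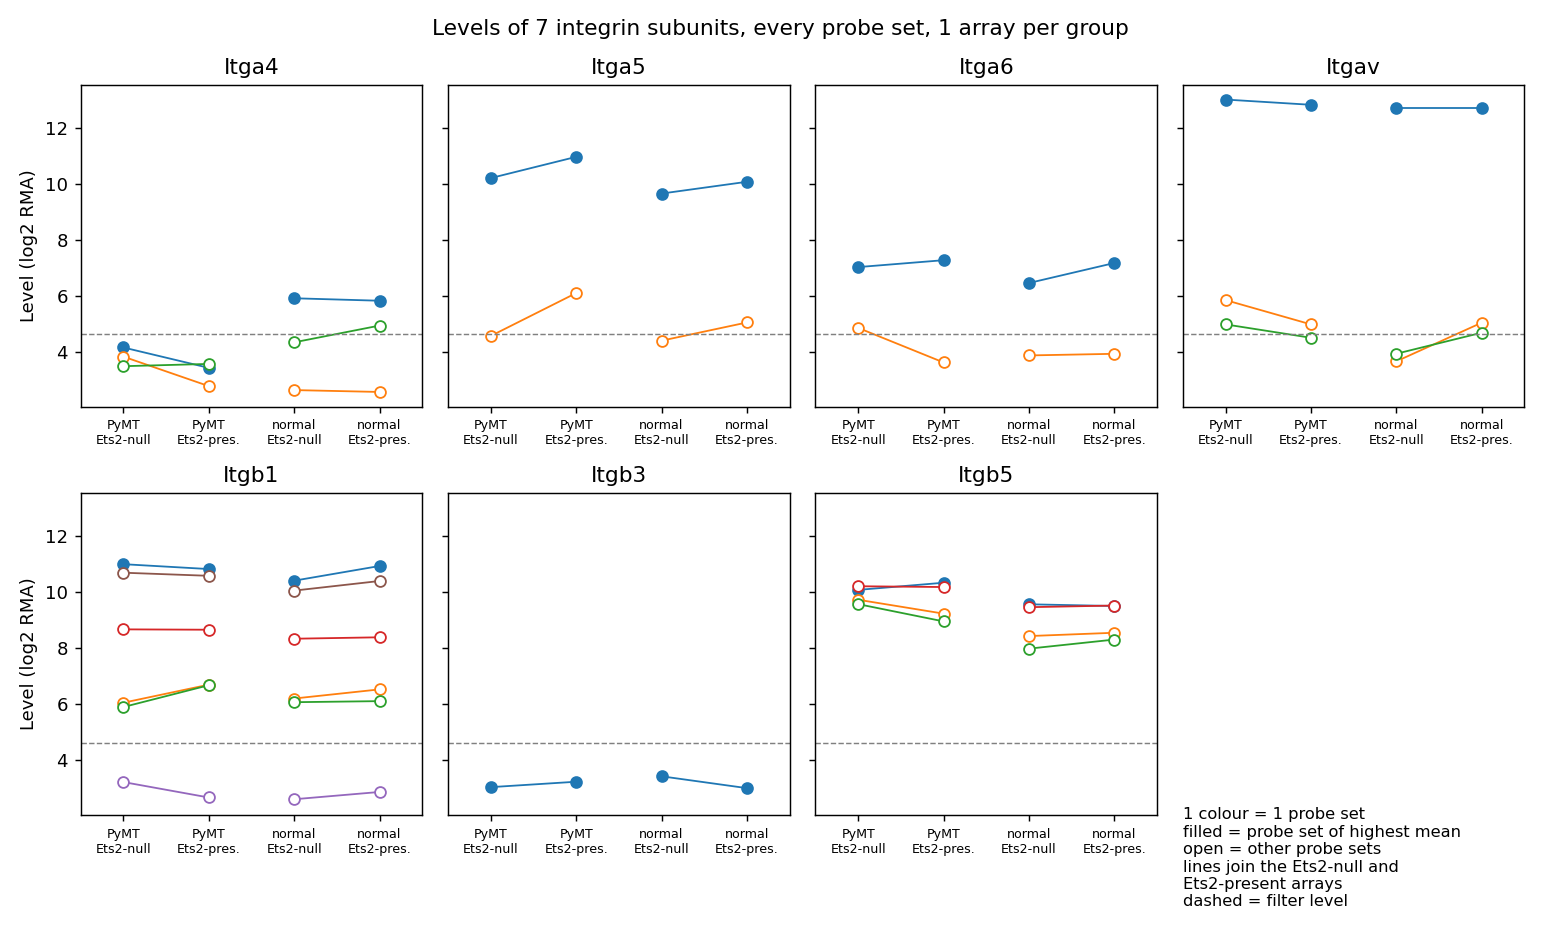
Log2 RMA level (vertical) of every probe set of the 7 integrin subunits in the 4 arrays (horizontal), 1 array per group. Colours are probe sets, filled points the probe set of highest mean, lines join Ets2-null and Ets2-present cells, and the dashed line is the filter level of 4.63. Heights of different probe sets are not comparable; within a probe set, the 2 kept probe sets of Itga4 read lower and the 4 of Itgb5 higher in the PyMT arrays, Itga5 read highest in PyMT Ets2-present cells, and Itgb3 stayed under the filter level in all 4.

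Itga5 is the alpha subunit of the main fibronectin receptor, and it was the member that read lower without Ets2 in both settings and in both of its probe sets. Its brighter probe set, 1423267_s_at, had a log2 level of 10.21 in PyMT Ets2-null cells, 10.96 in PyMT Ets2-present cells, 9.65 in normal Ets2-null cells and 10.07 in normal Ets2-present cells. PyMT Ets2-present cells were thus highest and normal Ets2-null cells lowest, and PyMT Ets2-null and normal Ets2-present cells lay close together between them. The log2 difference for Ets2-null minus Ets2-present was -0.76 in PyMT fibroblasts (1.69-fold lower) and -0.42 in normal fibroblasts (1.34-fold lower). The dimmer probe set, 1423268_at, read 4.57, 6.10, 4.41 and 5.06 in the same order of arrays, with differences of -1.53 in PyMT fibroblasts (2.89-fold lower) and -0.65 in normal fibroblasts. Both Ets2-null arrays were below the filter level there. The differences in PyMT fibroblasts exceeded the disagreement SD of 0.68 in both probe sets, and in normal fibroblasts only the dimmer one exceeded the SD of 0.48.

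Itga4, which pairs with Itgb1 to bind fibronectin and Vcam1, read lower in the PyMT arrays in its kept probe sets. Its brightest probe set, 1421194_at, read 4.16 in PyMT Ets2-null cells, 3.44 in PyMT Ets2-present cells, 5.92 in normal Ets2-null cells and 5.83 in normal Ets2-present cells. Both PyMT arrays lay below the filter level and both normal arrays above it. PyMT minus normal was -1.76 without Ets2 (3.38-fold lower) and -2.39 with Ets2 (5.26-fold lower). When levels under 4.63 were raised to it the differences were -1.29 and -1.20, still beyond 2-fold. The other kept probe set, 1450155_at, gave -0.85 and -1.37, from levels of 3.50, 3.58, 4.35 and 4.94, of which only normal Ets2-present cells reached the filter level. The third, 1427615_at, stayed below it on every array, at 3.84, 2.79, 2.64 and 2.58 in the same order, and its PyMT differences had the opposite sign, 1.19 without Ets2 and 0.21 with Ets2. The Ets2 difference of the brightest probe set was 0.73 in PyMT fibroblasts, between 2 levels under the filter, and 0.09 in normal fibroblasts.

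Itgb5, a beta subunit that pairs with Itgav to bind vitronectin, read higher in the PyMT arrays in all 4 of its probe sets. All 4 were above the filter level on every array. The probe set of highest mean, 1456195_x_at, read 10.08 in PyMT Ets2-null cells, 10.34 in PyMT Ets2-present cells, 9.57 in normal Ets2-null cells and 9.51 in normal Ets2-present cells. With Ets2, PyMT minus normal ran from 0.65 to 0.83 over the 4 probe sets, beyond the disagreement SD of 0.51 in each. Without Ets2 the 4 spread wider, from 0.51 in 1456195_x_at and 0.75 in 1456133_x_at to 1.30 in 1417533_a_at and 1.59 in 1417534_at, so 2 of the 4 were at least 2-fold higher. The suffix x, like the s of 1423267_s_at, marks probe sets with probes that can match other transcripts. The Ets2 difference also depended on the probe set, at -0.26, 0.03, 0.50 and 0.62 in PyMT fibroblasts in that order, and lay between -0.32 and 0.06 in normal fibroblasts.

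Itgb1, the common beta partner of Itga4, Itga5 and Itga6, stayed within 2-fold in every kept probe set. Its brightest probe set, 1426918_at, read 11.00 in PyMT Ets2-null cells, 10.82 in PyMT Ets2-present cells, 10.41 in normal Ets2-null cells and 10.93 in normal Ets2-present cells. Normal Ets2-null cells were lowest and the other 3 lay close together, with an Ets2 difference of 0.17 in PyMT fibroblasts and -0.52 in normal fibroblasts. Over the 5 kept probe sets the Ets2 difference ran from -0.78 to 0.17 in PyMT fibroblasts and from -0.52 to -0.04 in normal fibroblasts, where all 5 were below 0. PyMT minus normal ran from -0.17 to 0.64 without Ets2 and from -0.11 to 0.57 with Ets2.

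Itgav, which binds vitronectin and the latent form of Tgfb1, had one bright probe set and a pair of dim ones. The bright one, 1452784_at, read 13.01 in PyMT Ets2-null cells, 12.82 in PyMT Ets2-present cells and 12.71 in both normal Ets2-null and normal Ets2-present cells, a range of 0.30 over the 4 arrays. The dim probe set 1421198_at read 5.85, 4.99, 3.67 and 5.05 in the same order, with PyMT Ets2-null cells highest and normal Ets2-null cells lowest. Its Ets2 difference was 0.87 in PyMT and -1.38 in normal fibroblasts, and PyMT minus normal was 2.18 without Ets2 and -0.06 with Ets2. The other dim one, 1432296_a_at, ran the same way at smaller size, with Ets2 differences of 0.48 and -0.75 and PyMT differences of 1.05 and -0.18. The bright probe set gave Ets2 differences of 0.19 and 0.00 instead, so the 2-fold differences of Itgav were in dim probe sets only.

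Itga6, a laminin-binding alpha subunit, read 7.03 in PyMT Ets2-null cells, 7.28 in PyMT Ets2-present cells, 6.46 in normal Ets2-null cells and 7.18 in normal Ets2-present cells on probe set 1422445_at. Normal Ets2-null cells were lowest, and the Ets2 difference was -0.25 in PyMT and -0.71 in normal fibroblasts. The second probe set, 1422444_at, reached the filter level only in PyMT Ets2-null cells, at 4.86 against 3.63 in PyMT Ets2-present cells, an Ets2 difference of 1.23 against the sign of the first, and gave -0.06 in normal fibroblasts. Itgb3, the beta subunit of the vitronectin receptor alpha-v beta-3, is covered by 1 probe set, 1421511_at, whose levels of 3.04, 3.24, 3.43 and 3.01 were all below the filter level. Its differences are therefore not read.

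With each gene taken at its probe set of highest mean, no kept subunit was 2-fold apart between Ets2-null and Ets2-present cells. In counts, 0 of the 6 kept members were at least 2-fold apart in PyMT fibroblasts, where 15.4% of all kept genes were. In normal fibroblasts it was again 0 of 6, with 5.42% of all kept genes. The median Ets2 difference of the 6 was -0.04 in PyMT and -0.21 in normal fibroblasts, beside 0.02 and -0.02 for all kept genes. In normal fibroblasts 3 of the 6 genes were below 0, 2 above it and Itgav at 0.00. Over probe sets, 15 of 18 were below 0 there, 5 of them probe sets of Itgb1, with a median of -0.33, where 54.9% of all kept probe sets were below 0 with a median of -0.04. In PyMT fibroblasts 7 of 18 were below 0, beside 50.3%. At 2-fold, 1 probe set was higher (Itga6 1422444_at) and 1 lower (Itga5 1423268_at) in PyMT fibroblasts, beside 7.19% and 8.30% of all kept probe sets. In normal fibroblasts 0 were higher and 1 lower (Itgav 1421198_at), beside 2.81% and 2.74%. Beyond the disagreement SD were 2 of 6 genes in PyMT fibroblasts (Itga4 and Itga5), beside 27.9% of all kept genes, and 2 of 6 in normal fibroblasts (Itga6 and Itgb1), beside 21.8%. The Ets2 difference of Itga4 in PyMT fibroblasts was 0.00 once levels under 4.63 were raised to it, so that call was lost.

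The Ets2 difference in PyMT fibroblasts minus the one in normal fibroblasts lay between -0.34 in Itga5 and 0.70 in Itgb1. With this measure 0 of 6 genes were 2-fold apart, beside 21.4% of all kept genes, and 0 of 6 were beyond its disagreement SD of 0.86, beside 26.8%. Of the probe sets, 3 were at least 2-fold higher and 0 lower, beside 10.7% and 11.3%, and these 3 were the dim ones of Itgav and Itga6.

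**Figure D2:**
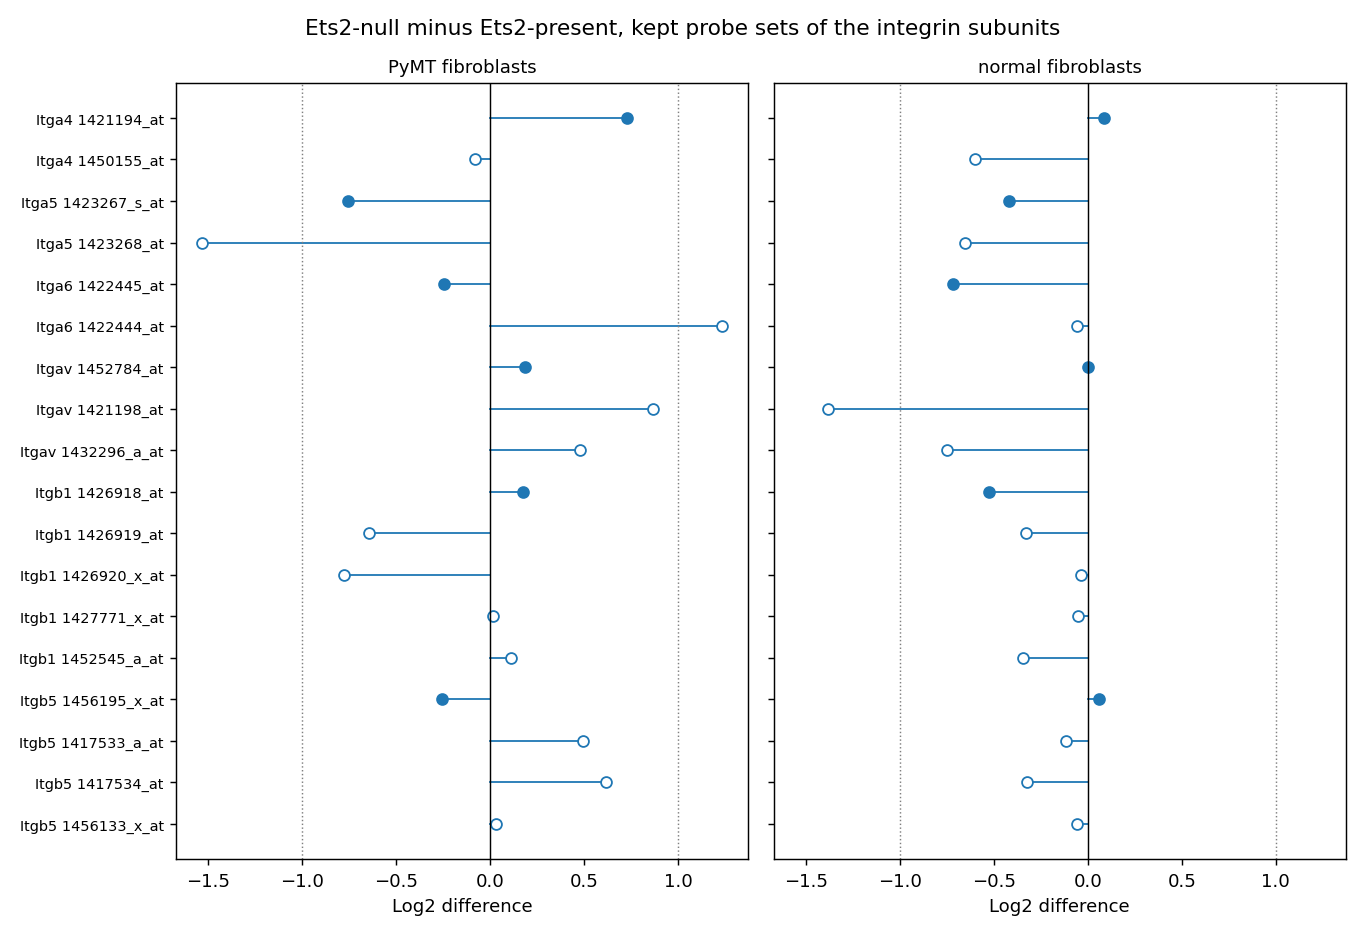
Log2 difference (horizontal) of Ets2-null minus Ets2-present fibroblasts for the 18 kept probe sets (rows), in PyMT fibroblasts (left) and normal fibroblasts (right), 1 array per group. Filled points are the probe set of highest mean of each gene and dotted lines mark 2-fold. Both Itga5 probe sets lie left of 0 in both panels, and 15 of 18 points, 5 of them of Itgb1, lie left of 0 in normal fibroblasts.

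For the PyMT oncogene, 1 of 6 kept members was at least 2-fold lower without Ets2 and 0 at least 2-fold higher, where 11.2% and 9.69% of all kept genes were. With Ets2 it was also 1 lower and 0 higher, beside 6.23% and 5.42%. The member was Itga4 in both. Over probe sets, 1 was lower and 4 higher without Ets2, beside 10.9% and 9.73%, and those 4 belonged to Itgav and Itgb5. With Ets2, 2 were lower (both Itga4) and 1 higher (Itga5 1423268_at), beside 5.94% and 5.52%. The median PyMT difference of the 6 was 0.53 without Ets2 and 0.10 with Ets2, beside 0.05 and -0.01 for all kept genes. Without Ets2, Itga5, Itga6, Itgb1 and Itgb5 were close together at 0.51 to 0.59, all inside the disagreement SD of 0.70. With Ets2, Itga5 (0.89) and Itgb5 (0.83) stood beyond the SD of 0.51, and Itga6 (0.10), Itgav (0.11) and Itgb1 (-0.11) within it. With Itga4, 3 of 6 genes were beyond the SD with Ets2, beside 32.5% of all kept genes, and 1 of 6 without Ets2, beside 34.0%.

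Other integrin subunits also differed in both directions with PyMT. Of 8 further non-leukocyte subunits on the array, 5 were kept. Itga9, which binds tenascin and other ligands with Itgb1, read 6.97 in PyMT Ets2-null cells, 7.71 in PyMT Ets2-present cells, 6.19 in normal Ets2-null cells and 5.55 in normal Ets2-present cells. Its PyMT difference was 0.78 without Ets2 and 2.16 with Ets2, and its 3 probe sets were all higher, at 0.78 to 1.61 and 1.41 to 2.16. Itga8, another Itgb1 partner, read 4.14, 3.96, 6.10 and 5.86 in the same order, with PyMT differences of -1.96 without Ets2 and -1.90 with Ets2. As for Itga4, both PyMT arrays were below the filter level. Itga7, a laminin receptor of muscle, had a PyMT difference of -1.09 without Ets2, between 2 levels under the filter (3.39 and 4.48). Itga2b, the platelet fibrinogen receptor subunit, had a PyMT difference of -1.36 without Ets2 and an Ets2 difference of 1.05 in normal fibroblasts. It was kept through normal Ets2-null cells alone, and that array enters both differences. For PyMT without Ets2, 3 of the 5 kept subunits were at least 2-fold lower and 0 higher, beside 11.2% and 9.69% of all kept genes. With Ets2 it was 1 lower and 1 higher, beside 6.23% and 5.42%. Itgb6 had an Ets2 difference of 1.18 in PyMT fibroblasts. It was kept through PyMT Ets2-null cells alone, at 4.643 against 3.465 in PyMT Ets2-present cells. Its other probe set, under the filter level on every array, gave -0.41. For Ets2 in PyMT fibroblasts, 1 of the 5 was at least 2-fold higher and 0 lower, beside 7.64% and 7.77% of all kept genes. In normal fibroblasts 1 of the 5 was 2-fold apart, beside 5.42%. These last 3 were dim, with a highest level of 4.93 for Itga7 and 4.64 for Itgb6.

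**Figure D3:**
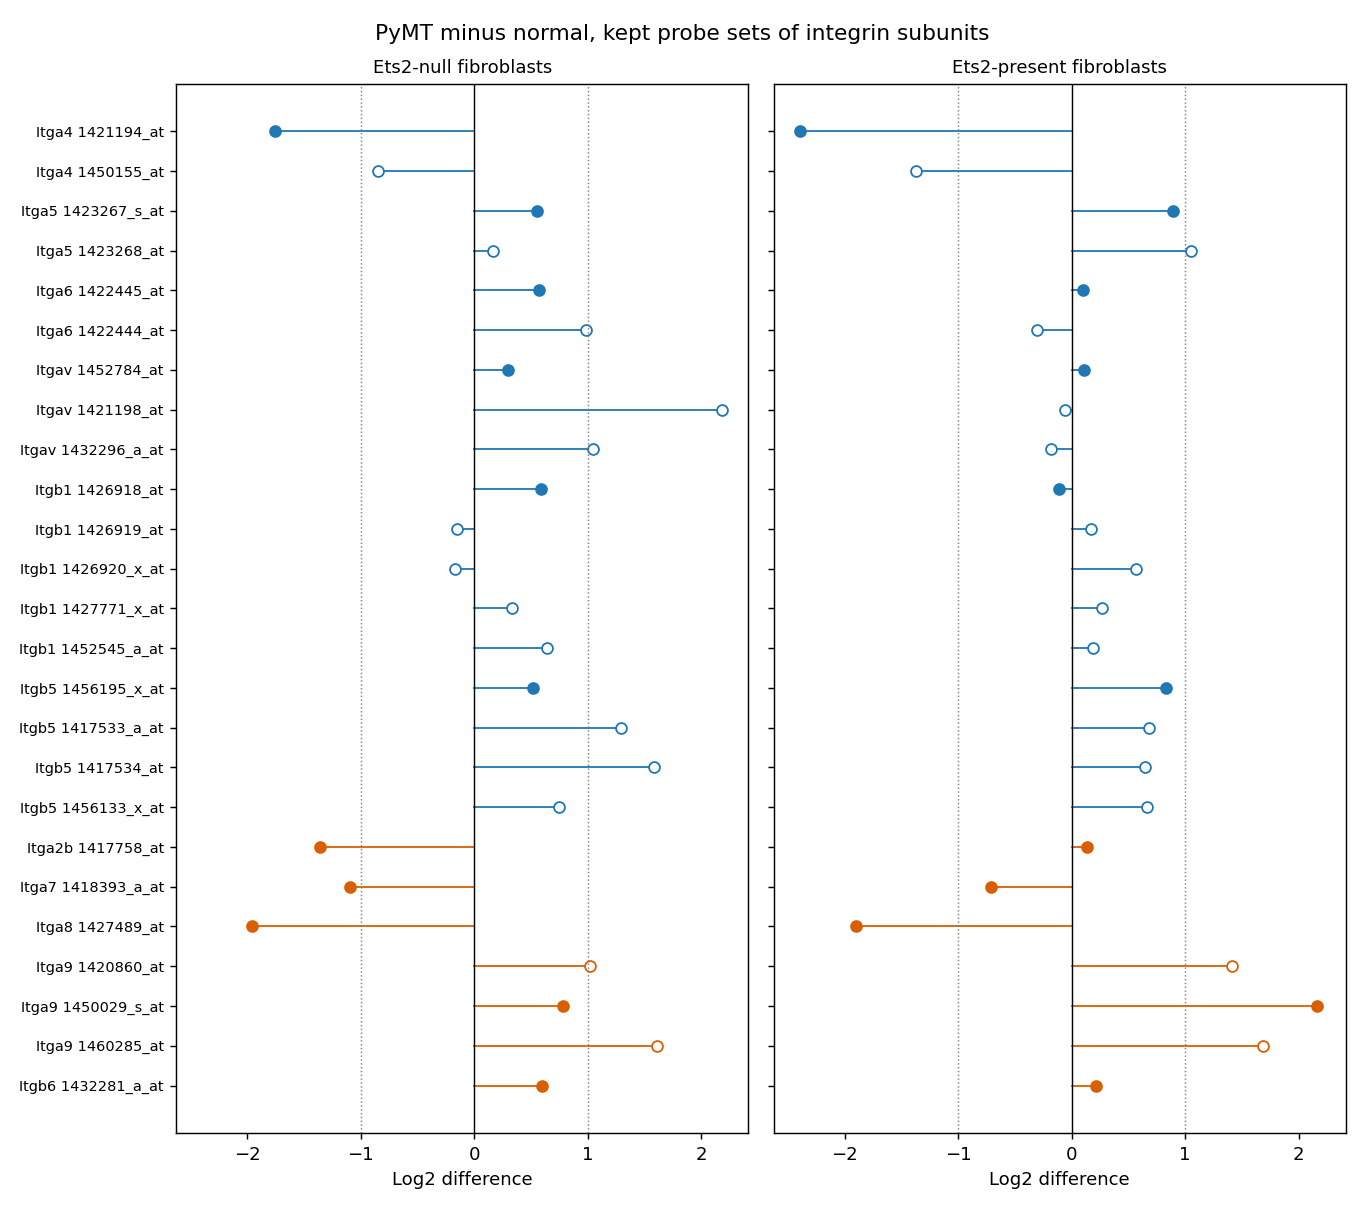
Log2 difference (horizontal) of PyMT minus normal fibroblasts for kept integrin probe sets (rows), in Ets2-null cells (left) and Ets2-present cells (right), 1 array per group. Blue marks the 7 subunits, orange other subunits, filled points the probe set of highest mean, dotted lines 2-fold. Itga4 and Itga8 lie left of 0 and Itga5, Itgb5 and Itga9 right of 0 in both panels.

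Marker genes of other cells also differed between the arrays. Of 20 macrophage and myeloid markers, 16 were kept. PyMT minus normal was above 0 in 10 of the 16 without Ets2 (median 0.34), beside 4556 of all 8687 kept genes. With Ets2 it was above 0 in 15 (median 0.88), beside 4299 of 8687. That median was 0.75 over all 20 with no filter, and 0.53 for the 16 with levels under 4.63 raised to it. The mean level of all 20 was 5.03 in PyMT Ets2-null, 5.56 in PyMT Ets2-present, 4.75 in normal Ets2-null and 4.77 in normal Ets2-present cells. In the same order, 10, 13, 10 and 9 of the 20 reached the filter level. Of 7 leukocyte integrin subunits, Itgam and Itgb2 among them, 0 reached the filter level on any array. Of 9 pericyte and smooth muscle markers, all kept, PyMT minus normal was above 0 in 8 without Ets2 (median 1.03), beside 4556 of 8687 kept genes. With Ets2 it was again above 0 in 8 (median 0.67), beside 4299 of 8687. Their mean level was 8.34, 7.90, 7.14 and 7.34 in the same order of arrays. Epithelial markers reached the filter level in 5, 2, 3 and 3 of 14, endothelial markers in 1, 0, 2 and 2 of 10, and T, B and mast cell markers in 0 of 9 on every array. For the Ets2 difference in PyMT fibroblasts, 12 of the 16 kept myeloid markers were below 0 and 4 above it (median -0.59). The median was -0.29 over all 20 with no filter, and -0.26 for the 16 with levels under 4.63 raised to it. Of all 8687 kept genes, 4227 were below 0 and 4453 above it. At least 2-fold lower were 5 of the 16 and higher 0, beside 7.77% and 7.64% of all kept genes. Among the 5 were Lcp1 (-3.16), Msr1 (-2.28) and Csf1r (-1.93). The others were Adgre1 (-1.65), kept through PyMT Ets2-present cells alone, and Cd68 (-1.04), with both PyMT levels under the filter. Mrc1 (-0.93), not among the 5, was also kept through PyMT Ets2-present cells alone. Of the 4 above 0, Cybb (0.79) and Ptprc (0.59) were the largest, both kept through PyMT Ets2-null cells alone. Lyz1 (-0.13) and Lyz2 (-0.04) lay near 0. The pericyte and smooth muscle markers had a median of 0.79 for this Ets2 difference, with 4 of 9 at least 2-fold higher and 1 lower. Of these, Des (1.02) was kept through PyMT Ets2-null cells alone. Cspg4 (-1.43), the 1 lower, was kept through PyMT Ets2-present cells alone. The pericyte median was 0.22 for the 9 when levels under 4.63 were raised to it. It was 0.38 for the 6 markers whose highest level reached 6.78. The 6 kept epithelial markers had a median of 0.63, with 2 at least 2-fold higher and 0 lower. The 2 higher, Epcam (1.42) and Krt14 (2.43), were kept through PyMT Ets2-null cells alone, the array in which they read high. The epithelial median was 0.28 over all 14 with no filter, and 0.07 for the 6 with levels under 4.63 raised to it. Beside the counts of the pericyte and epithelial lists stand the 7.64% higher and 7.77% lower of all kept genes. In normal fibroblasts the medians of these 3 lists were -0.12, -0.09 and -0.03. The part of such cells in the integrin differences was not tested. In cultures measured as a whole, fewer cells of a type and less RNA per cell cannot be told apart.

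Of 21 kept ligand genes, 0 were at least 2-fold higher and 2 lower without Ets2 in PyMT fibroblasts, beside 7.64% and 7.77% of all kept genes, with a median of 0.18. The pair was Tgfb1, the growth factor whose latent form Itgav binds (-2.65), and the tenascin Tnc (-1.06). Tgfb1 read 3.07 in PyMT Ets2-null, 5.72 in PyMT Ets2-present, 4.15 in normal Ets2-null and 4.60 in normal Ets2-present cells. Only PyMT Ets2-present cells reached the filter level, so Tgfb1 was kept through that array alone. Fibronectin (Fn1), the ligand of Itga5, was 0.44 in PyMT and -0.20 in normal fibroblasts, and Vcam1, the ligand of Itga4, was 0.94 and 0.36. In normal fibroblasts 0 of 21 ligands were 2-fold apart, beside 5.42% of all kept genes. For PyMT minus normal, 3 of the 21 ligands were at least 2-fold higher and 2 lower without Ets2, beside 9.69% and 11.2% of all kept genes, and 2 were higher and 1 lower with Ets2, beside 5.42% and 6.23%. With so few genes such counts say nothing particular to the ligands. The laminin chain Lama2 had a PyMT difference of 2.50 without Ets2 and 2.15 with Ets2, and Ltbp1, which tethers latent Tgfb1 to the matrix, had -1.88 and -1.62. Tgfb1 was -1.08 without Ets2, where both levels were under the filter, and 1.11 with Ets2, where the normal level was under it. The laminin chain Lamb2 (1.09) and the Itgav ligand Edil3 (1.15) were at least 2-fold higher without Ets2.

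Inside the cell, 29 of 30 adaptors and kinases of adhesion complexes were kept. Without Ets2 in PyMT fibroblasts, 3 of the 29 were at least 2-fold lower and 0 higher, beside 7.77% and 7.64% of all kept genes, with a median of -0.15. They were the docking protein Bcar1 (-1.72), the actin crosslinker Actn4 (-1.18) and the kinase Src (-1.06). Bcar1 read 6.68, 8.39, 7.37 and 6.87 in PyMT Ets2-null, PyMT Ets2-present, normal Ets2-null and normal Ets2-present cells, so PyMT Ets2-present cells were highest, as for Itga5. In normal fibroblasts the scaffold Git1 (-1.10) was the 1 of 29 genes 2-fold apart, beside 5.42% of all kept genes, with the opposite sign, 0.96, in PyMT fibroblasts. With Ets2, PyMT minus normal was 2-fold higher in 3 of 29 genes and lower in 1, beside 5.42% and 6.23% of all kept genes. These were Bcar1 (1.52), Src (1.03) and the tensin Tns1 (1.02), and, on the lower side, caveolin Cav1 (-1.24). Without Ets2 it was 2-fold higher in 2, Git1 (1.65) and Tns1 (1.32), and lower in 0, beside 9.69% and 11.2%. Among 5 integrin-associated tetraspanins, Cd151 alone was 2-fold apart, at -1.01 without Ets2 in normal fibroblasts and 2.36 with PyMT in Ets2-null cells, 1 of 5 genes in each, beside 5.42% of all kept genes 2-fold apart and 9.69% 2-fold higher.

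**Figure D4:**
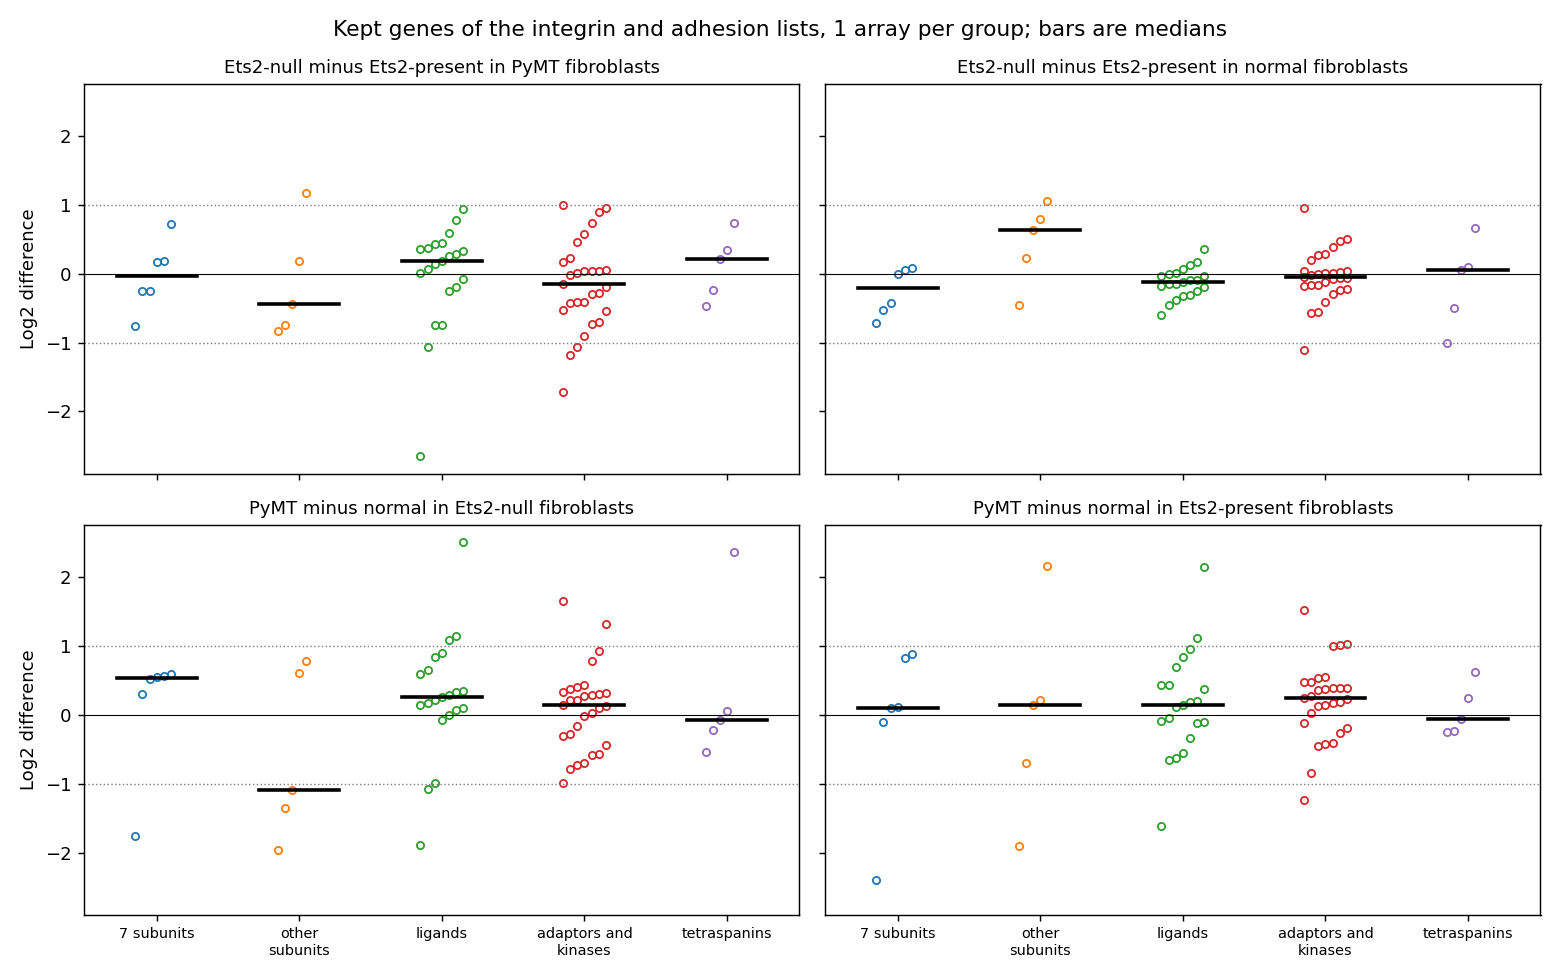
Log2 differences (vertical) of kept genes, each at its probe set of highest mean, for the 7 subunits and 4 related lists (horizontal), in the 4 array differences (panels), 1 array per group. Black bars are medians and dotted lines mark 2-fold. The subunits have a median of 0.53 for PyMT minus normal without Ets2 and between -0.21 and 0.10 in the other panels.

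Genes with the profile most like that of a member over the 4 arrays were found for Itga4 and Itga5, whose probe set of highest mean ranged over at least 2-fold, as 34.9% of all kept genes did. Likeness was the root mean square difference between profiles after each profile's mean was subtracted. Nearest to Itga4 were Eps8 (0.09), Aurka (0.13) and Ank3 (0.15), and 9 genes lay within 0.20. Nearest to Itga5 were Cpeb2 (0.03), Cd200r1 (0.06) and Pdgfc (0.07), and 108 genes lay within 0.20. With 4 arrays such profiles have few ways to differ, so the likeness is a description.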

How the data were processed

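Fibroblast RNA from 4 groups was measured on 1 Affymetrix mouse expression array each. The authors deposited log2 levels computed by RMA (version not given in the sources used here), a method that subtracts background, makes the probe distributions of the arrays equal and combines probes into 1 value for each of 22690 probe sets. Values ran from 1.42 to 14.8 with array medians of 5.63 to 5.74, so they are not centred per gene. Scanner files were not used here, so no detection calls were made. The number of arrays limits the precision.

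In the platform annotation 20393 probe sets had 1 gene symbol, 691 had several and 1606 had none. The 7 members matched the mouse RefSeq annotation by Entrez ID. Each gene took the values of the probe set with its highest mean, and was kept if its highest level reached the 40th percentile. The log2 differences, taken with pandas 2.3.3, were both Ets2 differences, both PyMT differences and the Ets2 difference in PyMT minus that in normal fibroblasts. No p-values were computed. The calling step was tested on simulated data. Alternatives were the filter, raising of low values, the mean over probe sets, omission of probe sets ending in _s_at or _x_at, median centring, cyclic loess (limma 3.58.1) and a 1.5-fold limit. Members and gene lists were chosen with earlier results of these data known. Named were all members and, from the adhesion lists, at most the 4 largest differences of at least 2-fold per list and difference, plus Ets2. Fn1, Vcam1 and the marker genes were named outside that rule, after their values were seen.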

Additional observations from a re-analysis of the deposited data

Results flagged for a closer look

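In 1 probe set the Ets2 difference ran in opposite directions in PyMT and normal fibroblasts, each by more than the disagreement SD between probe sets. It was the dim Itgav probe set 1421198_at, at 0.87 in PyMT and -1.38 in normal fibroblasts, 2.25 apart on the log2 scale. Each direction rests on 1 pair of arrays, and the difference was not tested. On normal Ets2-null cells this probe set read 3.67, below the filter level, and the bright Itgav probe set differed by 0.19 between the same contrasts.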

How the results depend on the processing

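No paired analysis was possible because each group has 1 array, and no array could be left out for the same reason. Median centring, cyclic loess and no filter each moved all 30 member differences by less than the disagreement SD of probe sets, and turned the sign of 0. The mean over probe sets moved 4 of 25 by more and gave 8 another sign (Itga6 for Ets2 in PyMT fibroblasts was 0.49, against -0.25 above), omission of _s_at and _x_at probe sets moved 4 of 30 and gave 3 another sign, and raised low values moved 2 of 30, both of Itga4, and gave 1 another sign. The filter at the 60th percentile (level 6.78) removed Itga4, which left 0 members 2-fold apart for PyMT in both Ets2 settings. With the mean over probe sets, which also put Itga4 under the filter, the members 2-fold apart were 1 for Ets2 in PyMT fibroblasts (Itga5, -1.14), 2 for PyMT without Ets2 (Itgav 1.18 and Itgb5 1.04), 0 for PyMT with Ets2 and 1 for the subtraction of the Ets2 differences (Itgav, 1.22). Without probe sets ending in _s_at or _x_at the counts were 1 (Itga5, -1.53), 2 (Itga4 and Itgb5) and 2 (Itga4 and Itga5) in the first 3 of these. Itgb5 then had an Ets2 difference of 0.50 in PyMT fibroblasts, a sign other than that of the -0.26 above. At 1.5-fold the counts were 2 and 1 for Ets2 in PyMT and normal fibroblasts, 2 and 3 for PyMT without and with Ets2, and 2 for the subtraction.

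Over all kept genes, 1339, 471, 1812, 1012 and 1856 were 2-fold apart for Ets2 in PyMT, Ets2 in normal, PyMT without Ets2, PyMT with Ets2 and the subtraction. At the stricter filter these were 546, 141, 849, 503 and 826, and at 1.5-fold 2889, 1367, 3669, 2347 and 3572. With low values raised the first pair was 872 and 247, and with no filter Ets2 in normal gave 720. The median of other integrin subunits for PyMT without Ets2 was -1.09, and 0.78 at the stricter filter, which left only Itga9.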
